A study of Mus musculus with 12 samples.

Results

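The replication-dependent histone genes of the mouse lie in 4 clusters, and their CTCF sites were compared between livers of starved and fed mice. The genes were taken from RefSeq on assembly GRCm38.p6, the build also called mm10, as the protein-coding genes that carry or carried a Hist1, Hist2, Hist3 or Hist4 symbol on chromosomes 13, 3, 11 and 6. There were 67 of them among 21900 protein-coding genes: 54 in Hist1, 10 in Hist2, 2 in Hist3 and 1 in Hist4. Peaks from all 6 ChIP libraries were merged into 76061 sites, and 49 of these lay within 5 kb of either end of a histone gene. By cluster, 39 sites belonged to Hist1, 6 to Hist2, 3 to Hist3 and 1 to Hist4.

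CTCF, a zinc finger protein found at insulators and at the anchors of chromatin loops, was profiled by ChIP-seq, the sequencing of DNA that an antibody pulls down with the protein, with a Diagenode antibody, in snap-frozen whole livers of mice kept under standard housing. All mice were wild-type male C57BL6/Ncrl animals, 3 to 4 months old, on normal chow. Starved mice had no food for 24 h before their livers were taken at ZT13 (zeitgeber time, hours after lights on), and ad libitum fed mice were sampled at ZT16, so that feeding state and collection time cannot be told apart. Each state had 3 ChIP libraries with 1 peak list each. The 3 starved and 3 fed input libraries were not analysed here. The starved lists held 30752, 23926 and 29866 peaks and the fed lists 56103, 49030 and 74950 peaks, with an unknown read depth behind them. Whether each library came from its own mouse is not in the labels. A p-value here therefore compares libraries, not mice, and the spread among the libraries may be technical. Whole liver holds many cell types, and peak lists carry no marker levels against which the tissue could be checked.

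Replication-dependent histone genes are short, mostly without introns, and are transcribed chiefly while DNA is copied in S phase. Their mRNAs end in a conserved stem-loop in place of a poly(A) tail, bound by SLBP and cut with the help of the U7 small nuclear RNP, and the genes gather with NPAT in histone locus bodies. H3 and H4 form the core tetramer of the nucleosome, dimers of H2A and H2B complete it, and H1 binds the linker DNA. Most hepatocytes of an adult mouse are out of the cell cycle.

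The sequences around the starts of histone genes that bore CTCF peaks come first. RefSeq promoters, running from 250 bases before to 50 bases after the start, were available for 62 of the 67 genes, as 63 windows of 300 bases. A site called in all 3 fed libraries, termed a fed site from here on, overlapped the promoter of 9 genes. Shown here are 6 of those 9 promoters, a pair called in all 3 starved libraries as well (H4c11 and H2aw), a pair called in 2 starved libraries (H4c6 and H2ac21) and a pair called in none (H1f2 and H2bc12). They lie at chr13:21734784-21735083 on the plus strand (H4c11), chr11:58954435-58954734 on the plus strand (H2aw), chr13:23551619-23551918 on the minus strand (H4c6), chr3:96219635-96219934 on the plus strand (H2ac21), chr13:23738557-23738856 on the plus strand (H1f2) and chr13:22035571-22035870 on the plus strand (H2bc12). Each is written 5′ to 3′ on the strand of its gene. Capitals mark 4 searched motifs on either strand. They are AGGNGGC (letters from the core of the CTCF motif) and ATTTGCAT (the octamer bound by POU factors). The others are CCAAT (letters of the box bound by NF-Y) and TATAAA (letters of the TATA box).
H4c11: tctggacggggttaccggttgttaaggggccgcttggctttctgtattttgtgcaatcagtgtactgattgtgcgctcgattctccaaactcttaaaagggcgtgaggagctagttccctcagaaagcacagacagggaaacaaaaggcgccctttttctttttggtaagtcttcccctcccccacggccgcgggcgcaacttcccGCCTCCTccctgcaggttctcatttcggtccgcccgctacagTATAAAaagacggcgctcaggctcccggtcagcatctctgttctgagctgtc
H2aw: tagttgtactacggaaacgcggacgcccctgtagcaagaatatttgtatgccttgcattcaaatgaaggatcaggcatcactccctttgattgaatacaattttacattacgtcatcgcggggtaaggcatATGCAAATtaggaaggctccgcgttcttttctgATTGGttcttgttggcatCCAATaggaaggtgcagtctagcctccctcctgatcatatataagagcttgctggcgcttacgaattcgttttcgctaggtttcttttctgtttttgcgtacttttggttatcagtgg
H4c6: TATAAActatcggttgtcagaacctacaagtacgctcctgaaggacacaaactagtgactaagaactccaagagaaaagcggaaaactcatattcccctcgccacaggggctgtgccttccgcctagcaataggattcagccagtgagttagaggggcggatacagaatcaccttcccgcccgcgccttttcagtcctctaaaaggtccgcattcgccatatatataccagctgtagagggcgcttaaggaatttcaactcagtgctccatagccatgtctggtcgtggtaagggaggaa
H2ac21: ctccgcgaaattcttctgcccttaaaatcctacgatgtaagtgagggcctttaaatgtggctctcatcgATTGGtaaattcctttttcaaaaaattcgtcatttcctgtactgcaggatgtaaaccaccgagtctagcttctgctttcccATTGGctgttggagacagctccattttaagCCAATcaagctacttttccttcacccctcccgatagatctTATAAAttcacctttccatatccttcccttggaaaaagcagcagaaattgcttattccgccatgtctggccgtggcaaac
H1f2: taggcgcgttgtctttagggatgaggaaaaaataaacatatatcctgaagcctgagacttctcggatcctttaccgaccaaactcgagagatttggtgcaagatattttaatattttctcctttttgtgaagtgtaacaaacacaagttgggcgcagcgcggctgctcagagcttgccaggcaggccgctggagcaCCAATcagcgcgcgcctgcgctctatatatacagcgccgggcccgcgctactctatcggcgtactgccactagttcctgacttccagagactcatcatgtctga
H2bc12: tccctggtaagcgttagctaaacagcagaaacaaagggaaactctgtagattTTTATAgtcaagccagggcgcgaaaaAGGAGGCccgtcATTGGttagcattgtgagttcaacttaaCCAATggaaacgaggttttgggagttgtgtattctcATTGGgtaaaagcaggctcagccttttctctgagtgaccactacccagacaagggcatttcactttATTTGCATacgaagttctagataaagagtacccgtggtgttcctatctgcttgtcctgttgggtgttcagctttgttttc

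The fed site covered all 300 bases of the H4c11 and H4c6 promoters. It covered the last 87 bases of the H2aw window, the last 105 bases of the H1f2 window, the first 43 bases of the H2ac21 window and the first 70 bases of the H2bc12 window. In H4c11 the CTCF core letters occurred once, 44 bases before the start on the strand opposite the gene, inside the site. In H2bc12 they occurred 172 bases before the start on the strand of the gene, outside the part covered by the site. The windows of H2aw, H4c6, H2ac21 and H1f2 did not hold these letters, and the parts of the sites beyond the windows were not searched. AGGNGGC is a fixed string, and other forms of the CTCF core were not searched. Its absence therefore does not show that a window lacks a CTCF motif. The H4c6 window, for example, holds the similar letters AGAGGGC.

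The 4 motifs were counted over all histone promoters and over all promoters of the table, and none of the differences was tested. CCAAT was found in 54 of 63 histone promoters (85.7%), against 37.4% of all 32851 promoters. It was present in every H1, H2A, H2B and H3 promoter searched and in 3 of 12 H4 promoters. The octamer occurred in 14 histone promoters (22.2%), 7 of 18 from H2A and 7 of 17 from H2B, and in none of the H1, H3 or H4 promoters, against 1.74% of all promoters. TATAAA occurred in 35 histone promoters (55.6%), against 13.6% of all. AGGNGGC occurred in 11 histone promoters (17.5%), against 29.4% of all. CCAAT and AGGNGGC are short and were counted on both strands, and neighbouring H2A and H2B genes share windows, so these shares are not over independent sequences. A match describes the letters in this window and does not mark a bound site, and other forms of the CTCF core were not counted. The median GC content was 45.3% in histone promoters and 52.7% in all promoters.

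**Figure D1:**
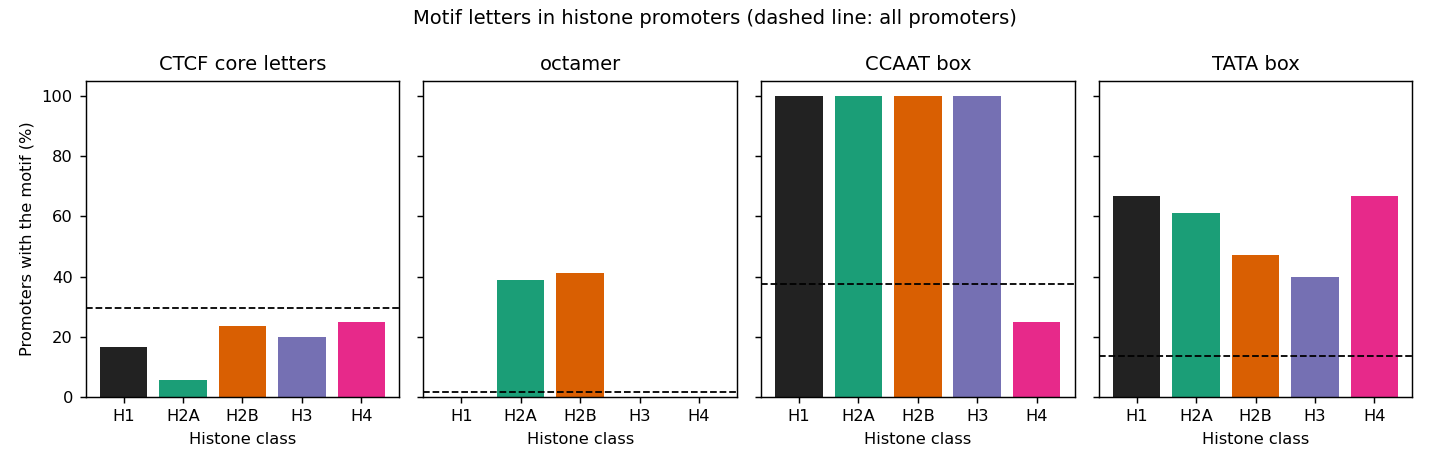
Percent of RefSeq promoters (y axis) of each histone class (x axis) that hold each searched motif on either strand, with the share over all 32851 promoters as a dashed line. The octamer bars reach 38.9% for H2A and 41.2% for H2B and are at 0 for the other classes, the CCAAT bars stand at 100% except for H4 at 25%, and all 5 bars for the CTCF core letters lie under the dashed line at 29.4%.

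The first comparison asked how many sites of the histone clusters were called in each state. Starved libraries 1, 2 and 3 had a peak at 12, 8 and 11 of the 49 sites, against 31, 21 and 46 in fed libraries 1, 2 and 3. The starved libraries averaged 10.3 ± 2.08 sites and the fed libraries 32.7 ± 12.6 (SD, n = 3 each), and every starved library had fewer sites than every fed library. The whole lists moved in the same direction. Over all protein-coding genes, starved libraries had 10002 ± 1598 sites within 5 kb and fed libraries 21925 ± 5811 (SD, n = 3 each), a starved minus fed difference of -11923.33 sites (two-sided exact permutation test, p = 0.1, the smallest p that 3 against 3 libraries allow). The sites near histone genes made up 0.106%, 0.0973% and 0.105% of the sites near protein-coding genes in starved libraries 1, 2 and 3, against 0.156%, 0.120% and 0.161% in the fed libraries. The share was thus lower in each starved library than in each fed one, although fed 2 lay close to starved 1.

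When each list was limited to its 23926 best-scored peaks, the length of the shortest one, the starved libraries had 9, 8 and 10 histone sites and the fed libraries 10, 9 and 11. The groups then overlapped. The share among sites near protein-coding genes was 0.104%, 0.0973% and 0.119% in the starved libraries and 0.120%, 0.108% and 0.130% in the fed libraries, also with overlap.

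**Figure D2:**
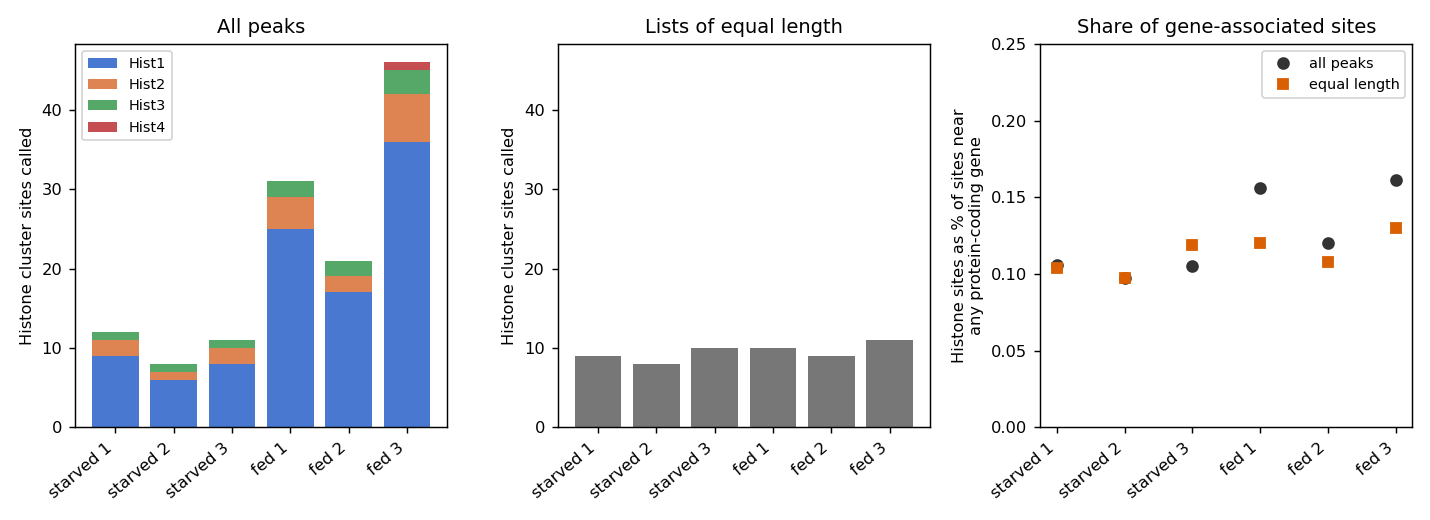
Histone cluster sites called in each ChIP library (x axis) for all peaks, stacked by cluster (left), and for lists of equal length (middle), and histone sites as a percent of sites near any protein-coding gene (right). Starved libraries called 8 to 12 sites and fed libraries 21 to 46, whereas lists of equal length gave 8 to 10 and 9 to 11.

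The second question was which sites were kept in starved livers. A total of 19 histone sites (38.8% of 49) were fed sites, against 56.1% of sites near protein-coding genes. Of these 19, 7 had no starved peak (36.8%, exact Clopper-Pearson 95% interval 16.3% to 61.6%), against 27.7% of fed sites near protein-coding genes. Without fed 2, the shortest fed list, 16 of 28 fed sites had no starved peak. The share near protein-coding genes was not counted without fed 2, so these 16 cannot be set against the 27.7%. In lists of equal length 0 of 9 had no starved peak, against 1.04% near protein-coding genes. At the other end, 8 were called in all 3 starved libraries as well (42.1%, interval 20.3% to 66.5%), against 48.4% near protein-coding genes. These intervals cover counting error only and treat the sites as independent, although neighbouring sites share a locus and all share the same libraries. They are not a test against the background. The remaining 4 of the 19 were called in 1 or 2 starved libraries. The reverse pattern, all 3 starved lists with a peak and no fed list with one, occurred at 0 sites in the clusters and at 0.0% near protein-coding genes. All 12 histone sites with a starved peak were fed sites. Near protein-coding genes this also held for most such sites, all but 382 of 12205. Of the sites not shared by all 3 fed libraries, 11 were called in 2 and 19 in 1, and 17 in fed 3 alone (34.7% of 49, against 27.9% near protein-coding genes). Fed 3 had the longest list. The 19 fed sites had a median width of 659 bp and the other 30 a median width of 215 bp.

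Seen by gene, 51 of 67 histone genes (76.1%) had a site within 5 kb and 27 (40.3%) had a fed site, against 69.1% and 57.1% of all protein-coding genes. Of these 27, 3 had no starved peak at any fed site, namely H2bc14, H1f2 and H3c3, against 16% of protein-coding genes with a fed site. The median length of a histone gene was 492 bp, against 17146 bp over protein-coding genes, so that their windows were shorter, and sites were shared: 9 of the 49 lay near a single histone gene and the others near up to 5. For other protein-coding genes of up to 1 kb, selected on length alone, 7.87% of 1524 had a fed site. For the 39 Hox genes, which also stand in clusters, 74.4% had a fed site, and 5 of their 25 fed sites had no starved peak (20%) while 17 were called in all 3 starved libraries (68.0%). For the 287 olfactory receptor genes of chromosome 2, 1.05% had a fed site. None of these families was tested against the histone genes.

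Fed sites without a starved peak had low score ranks in the fed lists, and sites called in all 6 libraries had high ones. Ranks are percentiles, with 100 for the best-scored peak, and the score is the authors' own value per peak. Because the lists differ in length, a difference in these ranks between states cannot be read as a change. Fed sites of the histone clusters had a median mean fed rank of 60.1, against 59.7 near protein-coding genes. The 7 fed sites without a starved peak ranked 18.3 to 42.5 (median 25.9) in the fed lists, and the 8 sites called in all 6 libraries ranked 65.2 to 89.2 (median 80.1). Near protein-coding genes these medians were 30.9 and 83.3. Below a fed rank of 50, a limit chosen after the values were seen, 7 of 8 histone sites had no starved peak, against 66.6% near protein-coding genes. At or above it, 0 of 11 lacked one, against 2.67% near protein-coding genes.

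**Figure D3:**
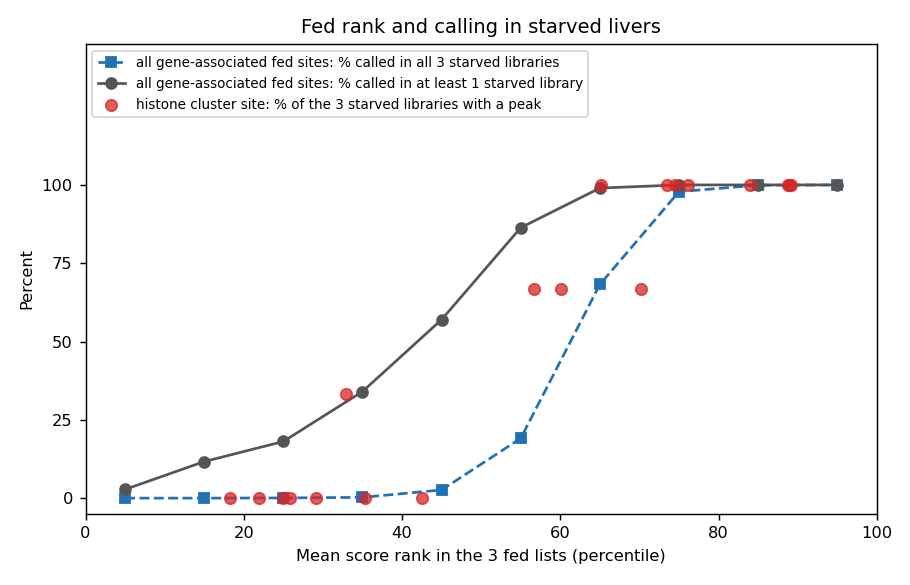
Calling in starved livers (y axis, percent) against the mean score rank in the 3 fed lists (x axis, percentile). Red points are the 19 histone fed sites, placed at the percent of starved libraries with a peak, and lines give, over all fed sites near protein-coding genes, the percent called in all 3 (dashed) or at least 1 (solid) starved library. The 7 red points at 0 all lie below a rank of 50.

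The sites called in all 6 libraries are described next, by cluster. In the first part of Hist1, which spans 327.9 kb from chr13:21715711-22043658 with 23 genes, 4 of 7 fed sites were of this kind. The best-ranked ones were near H4c11 and H2bc13. H4c11, an H4 gene, had its site at chr13:21733747-21735176, over its promoter, and the ranks were 69.1, 85.2 and 59.9 in starved libraries 1, 2 and 3 and 87.7, 86.0 and 93.0 in fed libraries 1, 2 and 3. H2bc13, an H2B gene, had a site at chr13:21714373-21715413, with ranks of 81.6, 61.4 and 63.7 in the starved and 92.1, 88.2 and 86.1 in the fed libraries. This last site lay 298 bp outside the end of the outermost gene of the cluster. At the opposite edge, a site at chr13:22043848-22044782 lay 190 bp beyond H2bc11, with ranks of 29.7, 36.2 and 50.3 in the starved and 71.0, 73.2 and 84.4 in the fed libraries. The fourth, at chr13:22030183-22030841, lay 4281 bp from the H2A gene H2ac12 and ranked 54.8, 20.1 and 41.7 in the starved and 69.5, 72.9 and 81.0 in the fed libraries. Of the 23 genes of this stretch, 9 had a site called in all 6 libraries within 5 kb. These 9 genes share the 4 sites, and the share over all protein-coding genes was not counted.

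In the second part of Hist1, at chr13:23531044-23934913 with 31 genes over 403.9 kb, 2 of 8 fed sites were called in all 6 libraries, and both flanked the H4 gene H4c3. The one at chr13:23697272-23698170 overlapped the gene body and ranked 73.0, 41.1 and 77.1 in the starved and 87.5, 86.3 and 93.8 in the fed libraries, the best fed mean of the clusters at 89.2. The other, at chr13:23700947-23701659, lay 2489 bp before H4c3 and ranked 78.2, 68.6 and 90.0 in the starved and 84.0, 79.5 and 88.6 in the fed libraries. Between them stood a site without a starved peak, at chr13:23699818-23700088, with fed ranks of 10.8, 10.7 and 44.4. Within these few kilobases, well-ranked sites called in all 6 libraries and a low-ranked site called in the fed libraries alone were neighbours. Of the 31 genes here, 3 had a site called in all 6 libraries within 5 kb, again with no share over all protein-coding genes. The gene counts of both parts of Hist1 were not tested against each other.

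The smaller clusters had few sites. In Hist2, which spans 50.3 kb on chromosome 3, the site at chr3:96263093-96264273 overlapped the H4 gene H4c14 and was called in all 6 libraries, with ranks of 56.7, 63.3 and 51.0 in the starved and 72.2, 72.0 and 76.1 in the fed libraries. The other Hist2 fed site, at chr3:96219105-96219677 beside the H2A gene H2ac21, ranked 16.5 in starved 1 and 36.2 in starved 3, had no peak in starved 2, and ranked 58.9, 48.7 and 72.7 in the fed libraries. Next in rank was a site at chr3:96221183-96221715 over the H2B gene H2bc21, called in fed 1 at a rank of 14.0 and in fed 3 at 43.0. In Hist3 the site at chr11:58954648-58955520 overlapped the promoter of the H2A gene H2aw and ranked 45.0, 25.2 and 49.3 in the starved and 60.1, 64.4 and 71.1 in the fed libraries. It also overlapped Trim17, a gene for a tripartite motif ubiquitin ligase, as did a site at chr11:58960146-58960630, 4954 bp from H2aw, that had no starved peak and fed ranks of 19.97, 26.5 and 59.5. The remaining Hist3 site, at chr11:58953019-58953162, was called in fed 3 alone at a rank of 3.5. In Hist4 the single site, at chr6:136805417-136805591 near the H4 gene H4f16, was also called in fed 3 alone, at a rank of 10.1.

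Ranks in lists of equal length can be set side by side. With 23926 peaks per list, 11 histone sites remained and 9 of them were fed sites. None of these 9 lacked a starved peak, against 1.04% near protein-coding genes, and 8 were called in all 3 starved libraries, against 90.5%. The ninth was the site beside the H3 gene H3c6 (chr13:23562690-23563595), called in 2 starved libraries. Of the 8 shared sites, 0 had all starved ranks below all fed ranks, against 7.43% near protein-coding genes. A single site, the one 2489 bp before H4c3, had all starved ranks (72.0, 68.6 and 87.5) above all fed ranks (62.4, 58.0 and 64.2), against 7.11% near protein-coding genes. At the other 7 the starved and fed ranks overlapped. For H4c11 they were 60.3, 85.2 and 49.97 in the starved and 71.2, 71.2 and 78.1 in the fed libraries, and for H2aw 29.3, 25.2 and 36.7 in the starved and 6.4, 27.1 and 9.4 in the fed libraries.

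**Figure D4:**
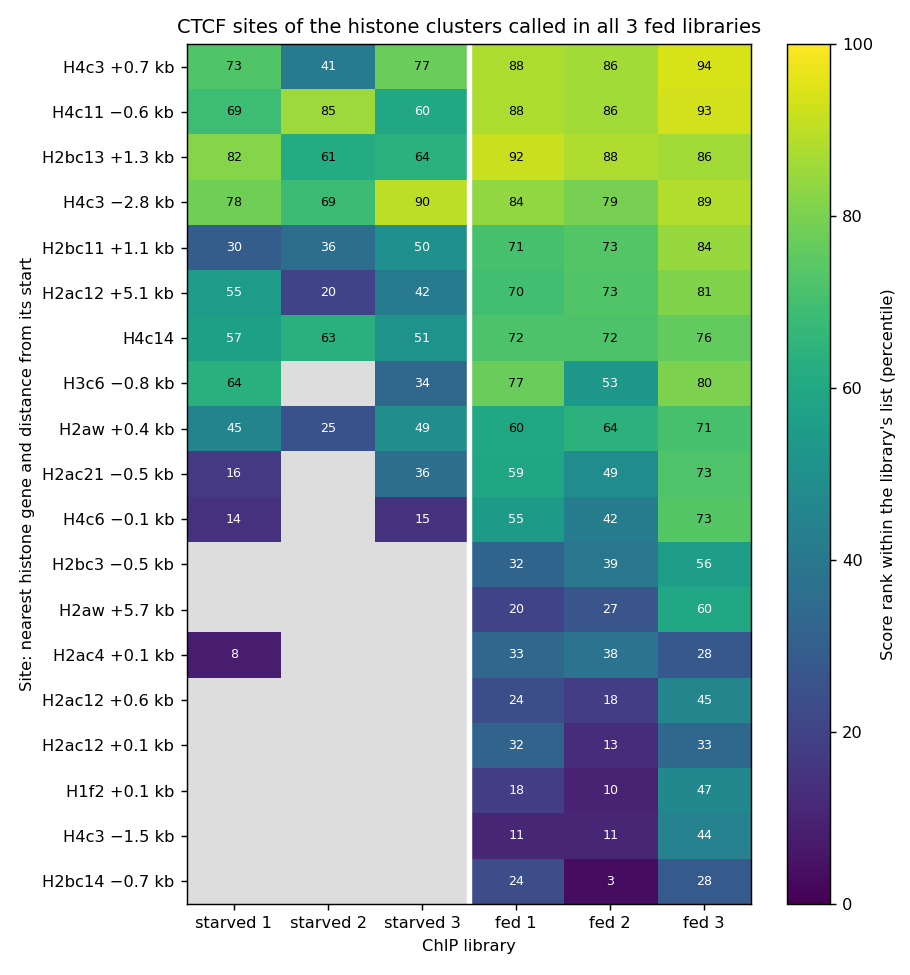
Score rank (colour and number, percentile within the library's own list) of the 19 histone fed sites (rows, by nearest histone gene and distance of the site's middle from its start, without a distance where that gene has no promoter entry) in 3 starved and 3 fed libraries (columns). Grey cells had no peak: 7 rows are grey in all starved columns and 8 rows are filled throughout.

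The 7 fed sites without a starved peak had a mean fed rank of 18.3 to 42.5. By mean fed rank the first of these 7 was the site at chr13:23745921-23746581 beside the H2B gene H2bc3, with fed ranks of 32.2, 39.1 and 56.2. It also overlapped the pseudogene H2ac5-ps. Beyond the Trim17 site already given, a pair lay at the divergent genes H2ac12 and H2bc12. The site at chr13:22034857-22035262 overlapped the H2ac12 gene body and had fed ranks of 23.9, 18.3 and 45.4, and the one at chr13:22035445-22035640 overlapped both promoters and had fed ranks of 31.6, 12.6 and 33.4. The linker histone gene H1f2 had its site at chr13:23738752-23739028, over the promoter, with fed ranks of 18.2, 10.1 and 46.6. In each of these, fed 3, the longest list, gave the highest rank. The lowest-ranked of the 7 fed sites was the site at chr13:21721125-21721480 near the H2B gene H2bc14, over the pseudogene H2ac14, with fed ranks of 23.6, 3.1 and 28.3.

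Sites seen in part of the starved libraries stood between these groups. The site over the H4c6 promoter, at chr13:23551461-23551997, ranked 14.4 in starved 1 and 14.6 in starved 3 and 54.7, 41.9 and 73.5 in the fed libraries. The site at H3c6 ranked 63.7 in starved 1 and 33.6 in starved 3 and 77.2, 53.2 and 80.3 in the fed libraries. The site at the H2A gene H2ac4, at chr13:23751060-23751326, ranked 7.7 in starved 1 and 33.1, 38.0 and 27.6 in the fed libraries. Starved 2, the shortest list, lacked a peak at all 3 of these and at H2ac21.

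**Figure D5:**
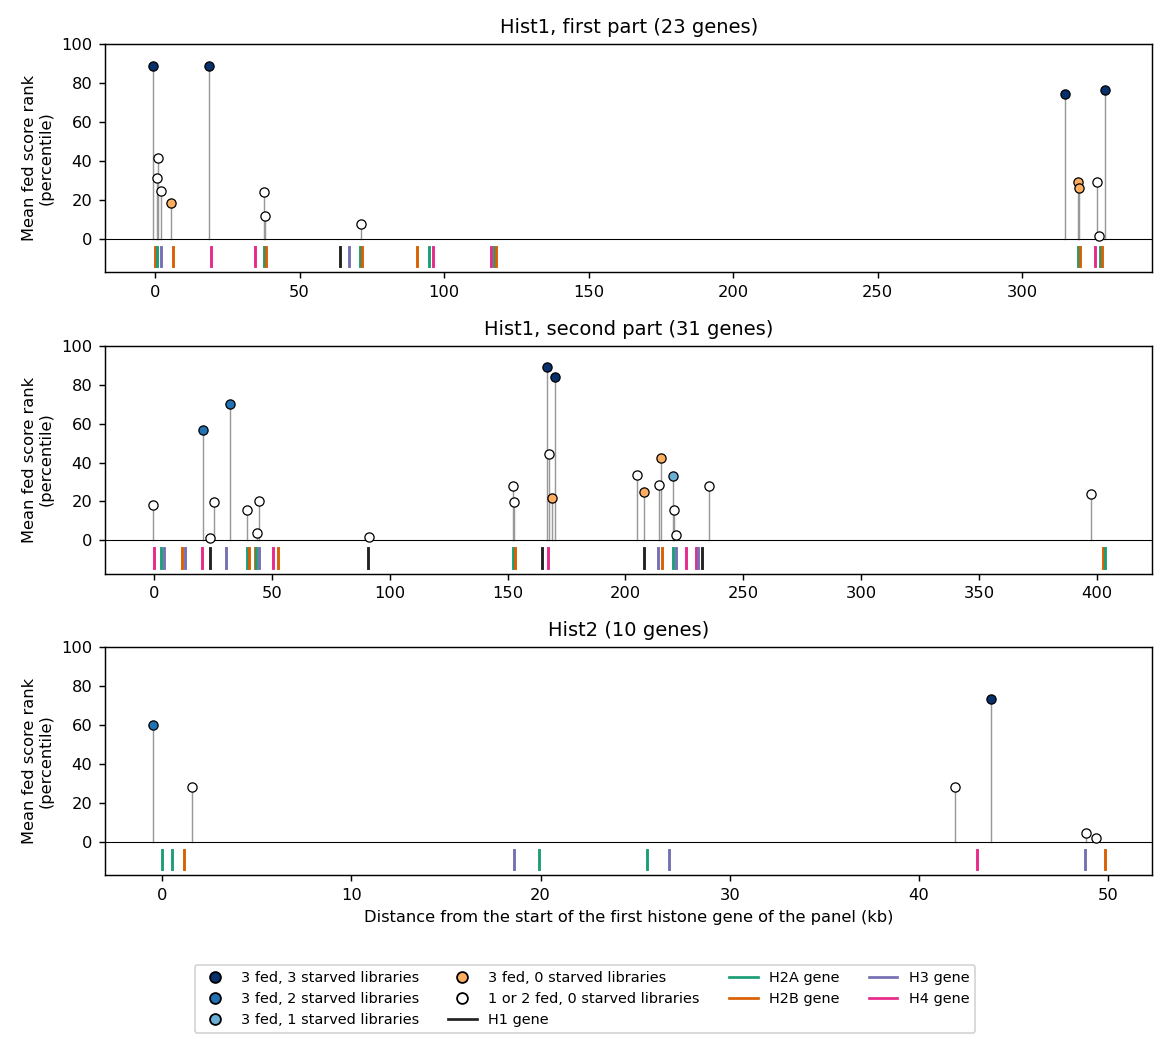
Sites (circles) along both parts of Hist1 and along Hist2, by distance from the start of the first histone gene of the panel (x axis, kb) and mean score rank in the fed lists that called them (y axis, percentile), with gene positions as coloured ticks under the axis. Dark blue circles, called in all 6 libraries, lie at both edges of the first part of Hist1 and around H4c3 in the second part, and the first part has a stretch of genes with no circle.

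The fed sites were also sorted by their position relative to the genes. Of the 19 fed sites, 8 overlapped a histone promoter, of which 2 were called in all 6 libraries, 3 in part of the starved libraries and 3 in none. Another 3 overlapped a gene body without a known promoter (2 in all 6, 1 with no starved peak). Among these 3 is the site at H4c14, a gene without a promoter entry, so that it could not be classed as a promoter site. The remaining 8 lay outside (4 in all 6, 1 in part, 3 with no starved peak). The median mean fed rank was 49.6 for the promoter sites and 72.4 for the outside sites, and the median width 555 bp and 686 bp. These groups are too small for a firm order.

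All 5 histone classes were touched. A fed site lay within 5 kb of 3 of 6 H1 genes, 7 of 18 H2A genes, 7 of 18 H2B genes, 5 of 12 H3 genes and 5 of 13 H4 genes. A site called in all 6 libraries lay near 1 H1, 4 H2A, 4 H2B, 2 H3 and 4 H4 genes, and the matching share over all protein-coding genes was not counted. Neighbouring genes share sites, so the classes are not independent. A divergent arrangement with shared promoter windows was found for 10 H2A and H2B pairs. Of these, 3 had a site over the shared windows, 1 a fed site (H2ac12 and H2bc12) and 0 a starved peak.

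The 16 genes with no site within 5 kb were H1f5, H2bc23, H2ac23, H4c17, H4c18, H2ac24 and H4bc24 in the first part of Hist1, H2bc9, H3c7, H4c4, H4c1 and H2ac1 in the second, and H3c15, H2ac19, H2ac18 and H3c14 in Hist2. Of 15 promoters of genes with no site, 10 shared a run of at least 36 bases with another histone promoter that did not overlap them, against 4 of 48 promoters of genes with a site. In all 10, over 50% of such runs were shared, whereas the highest share among the 48 was 21.9%, for H4c11 and H4c12. The H2bc23 and H4bc24 promoters were shared throughout (100%). Reads from near-identical copies cannot be placed uniquely, the sources used here do not give how such reads were handled, and their part in the missing calls was not tested.

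Genes for the processing, regulation and deposition of histones, from lists chosen with earlier results known, also had fed sites. Of 14 genes for processing and regulation of histone mRNA, 9 had a fed site, against 57.1% of protein-coding genes. None of these 9 lacked a starved peak at all its fed sites, against 16% of protein-coding genes with a fed site. The best-ranked was at Lsm11, a subunit of the U7 small nuclear RNP (chr11:45944214-45945363), with a mean rank of 99.6 in the starved and 99.4 in the fed libraries. The exonuclease gene Eri1 (chr8:35497991-35499337) had 86.8 in the starved and 97.1 in the fed libraries, and the scaffold gene Sympk (chr7:19023262-19024193) had 83.3 in the starved and 95.7 in the fed libraries. Of the 21 fed sites of this list, 3 had no starved peak and 13 were called in all 3 starved libraries, against 27.7% and 48.4% of fed sites near protein-coding genes, and the median fed rank was 75.9 against 59.7.

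Of 13 histone chaperone genes, 12 had a fed site and 1, the H2A.Z chaperone Anp32e (chr3:95929618-95930481), had no starved peak there, with a mean fed rank of 38.8. Over all protein-coding genes, 57.1% had a fed site, and 16% of those had no starved peak at any fed site. Chaf1a and Chaf1b encode subunits of CAF-1, which deposits H3 and H4 behind the replication fork. Of 2 fed sites of Chaf1a, 1 had no starved peak and 1 was called in all 6 libraries, and of 5 fed sites of Chaf1b, 3 had no starved peak and 1 was called in all 6. At the best-ranked site of each, Chaf1a (chr17:56036222-56037313) had a mean rank of 99.0 in the starved and 98.8 in the fed libraries, and Chaf1b (chr16:93905825-93906912) had 79.4 in the starved and 95.5 in the fed libraries. The H3 and H4 chaperone gene Asf1b (chr8:83954966-83955687) had 79.7 in the starved and 91.2 in the fed libraries. Of the 22 fed sites of this list, 10 had no starved peak, against 27.7% of fed sites near protein-coding genes, and 9 were called in all 3 starved libraries, against 48.4%, with a median fed rank of 46.5.

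Of 11 genes for replication-independent histones, 8 had a fed site, and 2 of these 8, Macroh2a1 (chr13:56072120-56072575, mean fed rank 37.0) and the linker histone gene H1f10 (chr6:87980266-87980633, mean fed rank 40.3), had no starved peak. The shares over protein-coding genes were again 57.1% with a fed site and, of those, 16% with no starved peak at any. Macroh2a2 (chr10:61734106-61735186) had a mean rank of 87.1 in the starved and 94.5 in the fed libraries. H3f3b, which encodes H3.3 (chr11:116023453-116024473), had 93.0 in both groups, and H2az1 (chr3:137864787-137866028) had 83.4 in the starved and 86.8 in the fed libraries. Of the 13 fed sites of this list, 3 had no starved peak and 7 were called in all 3 starved libraries, both close to the 27.7% and 48.4% near protein-coding genes. In each of the 3 lists the sites of the 3 best-ranked genes named were called in all 6 libraries. Their fed ranks were above 80. Near protein-coding genes, 99.9% of fed sites ranked 80 to 90 and 100% of those ranked 90 to 100 were called in all 3 starved libraries. The lists were not tested against each other.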

How the data were processed

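CTCF ChIP-seq peak lists of 3 starved and 3 fed liver libraries were used, with 1 list per library, not pooled. Groups and replicate numbers came from the sample titles. Each list gave position and a score per peak, deposited by the authors. Its values resemble −log10 p or q, and the sources used here do not define it. The submitters' processing notes name build mm10 and, in no stated role, HOMER, MACS2, bedtools 2.17, SAMtools, BWA 0.7.5a and FastQC. Read depth, the handling of duplicates and any use of inputs as control: not given in the sources used here.

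Overlapping peaks (1 bp or more) of the 6 lists were merged into sites, and a library had a site called if it contributed a peak. Score ranks are percentiles within 1 list. A site was near a gene when within 5 kb of either end. The 67 genes were matched on older symbols, which brings in H2aw and H2bu2 and leaves out H1f8 and H1f10. Hist1 was split into its parts at gaps over 200 kb between genes. Coordinates are mm10, counted from 1. Gene positions and promoters came from RefSeq tables of GRCm38.p6. Gene strand came from the promoter table. Peak sequences were not used here.

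The members and lists were chosen with earlier results of these data known. Named were the 3 best-ranked sites per cluster, all histone sites called in all 6 libraries, the 5 best-ranked without a starved peak, genes whose promoter overlapped a fed site, up to 3 genes per related list by best fed rank, and flanking genes overlapped by sites. Other names were chosen after their values were seen. The number of sites per library was compared by an exact permutation test over 20 labellings. Alternatives were windows of 1 and 20 kb, lists of equal length, a stricter score limit of 30.4, peaks trimmed to 200 bp, 2 of 3 fed libraries, leaving out each library, and a replicate block. The merging was tested on simulated data. Tools were scipy 1.17.1, matplotlib 3.10.9, numpy 2.4.6, pandas 2.3.3 and Python 3.11.15.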

Additional observations from a re-analysis of the deposited data

How the results depend on the processing

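Counts of sites in peak lists depend on list length, and read depth is unknown, so a missing call may be a site not detectable at that depth. The 19 fed sites became 36 with a window of 20 kb, 9 in lists of equal length, 10 above the stricter score limit and 30 when 2 of 3 fed libraries were enough. The 7 without a starved peak became 11, 0, 1 and 18 under the same settings. The 8 called in all 3 starved libraries became 18 with a window of 20 kb and 4 above the stricter limit. Leaving out 1 library gave 19 to 28 fed sites, 7 to 16 without a starved peak and 8 to 11 in all starved libraries. Fed 2, the shortest fed list, decided the upper end: without it 28 fed sites were counted, 16 of them without a starved peak. Apart from lists of equal length, the matching shares near protein-coding genes were not counted under these alternatives. A window of 1 kb and trimmed peaks kept these 3 counts within 1.5 times. Sites called in all starved libraries and no fed library numbered 0 under every alternative run. Newer gene symbols, which add H1f8 and H1f10 and were chosen after seeing the data, gave 20, 8 and 8.

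Among the 8 shared sites, 1 had non-overlapping ranks in lists of equal length and 7 did in the full lists, whose lengths differ. The share over all shared sites was not counted in the full lists, so the 7 cannot be read as a trait of the histone sites. The starved minus fed difference in sites near protein-coding genes was -11923.33, and 28 in lists of equal length (exact permutation p = 0.8), where all lists hold as many peaks by construction; the cause of the change in sign was not tested. Leaving out 1 library moved it over -14161.5 to -8640, and p stayed at 0.2, the smallest possible there. With the replicate block the difference was -11923.33 (exact p = 0.25, the smallest that 3 pairs allow). The labels do not say whether replicate numbers pair the samples. A check by correlation could not decide it. Same-numbered starved and fed libraries gave 0.0118, -0.0271 and 0.0130, within the range of differently numbered ones (-0.0474 to 0.0373).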
